A study of Xenopus laevis with 16 samples.

Results

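The Hox cluster genes encode homeodomain transcription factors that give cells along the head-to-tail axis their regional identity. They lie in clusters named a to d, and a gene's paralogue number gives its place in the cluster: genes with low numbers are generally switched on earlier and act further forward, in the hindbrain, and those with high numbers act in the trunk and tail. In the frog gastrula they start in the mesoderm of the lower and lateral margin and in the neural plate from the hindbrain backwards. Wnt, FGF and retinoic acid signals influence them, and neural crest cells carry the Hox code of the level they leave.

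The members were all probe sets whose single gene symbol in the platform's annotation is hoxa, hoxb, hoxc or hoxd followed by a number. They were 38 of the 32539 probe sets tested, for 25 genes of the 11303 that carry a single symbol. Xenopus laevis keeps both copies of a doubled genome, marked .L and .S: 10 of the genes were .L copies, 13 were .S copies, and hoxb9 and hoxd9 carry no ending. A single probe set measured 16 of the genes and several measured 9, with a maximum of 4 for hoxc6.S. Paralogue numbers ran from 2 to 13, so that 5 genes were anterior (1 to 3), 10 central (4 to 8) and 10 posterior (9 to 13). By cluster, 8 probe sets belonged to HoxA, 13 to HoxB, 10 to HoxC and 7 to HoxD. Another symbol, xhoxc8, has 1 probe set of its own and shares another with hoxc8.S. Neither is a member, and they read 1.47 to 2.22 and 1.33 to 1.98 over the samples.

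The series measured RNA with Affymetrix arrays in animal caps, ectoderm cut from the top of the blastula, to find targets of Pax3 and Zic1, transcription factors of the neural plate border from which neural crest arises. All 5 groups were Xenopus laevis animal caps explanted at stage 9 and lysed as whole embryos reached stage 11.5 to 12, with 3 biological replicates each. Control caps were uninjected and received no dexamethasone and no cycloheximide. Pax3 caps carried a Pax3-GR construct, injected at the stage of 2 to 4 cells and switched on with dexamethasone for 2 h. Pax3 and Zic1 caps carried Pax3-GR and Zic1-GR and had the same dexamethasone. Each of these also had a form given the translation inhibitor cycloheximide, at 0.1 mg/ml, for 30 min before the dexamethasone and together with it. Where given, cycloheximide began at stage 10 and dexamethasone at stage 10.5. All groups shared a growth temperature of 15 °C and a treatment temperature of 23 °C. No control had the injection, dexamethasone or cycloheximide alone, so that in the comparisons with control the factors, the hormone and, where given, the drug cannot be told apart. A cap is a mixture of cells, and fewer cells that express a gene and less RNA per cell cannot be told apart.

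Of the probe sets of pax3 and zic1, those of pax3.S were high in every injected sample, whereas those of pax3.L and those of zic1.S disagreed. For pax3.L, Xl2.45266.1.S2_at was higher than in control caps by 3.69 to 5.29 in the injected groups. The other pax3.L probe sets differed from control by -0.92 to 0.39. The pax3.S probe set Xl2.49495.3.S1_a_at read 1.93 to 2.34 in control caps and 5.20 to 7.36 in the injected groups. For zic1.S, Xl2.1796.1.S1_at read 6.74 to 7.69 in control caps, 7.67, 8.05 and 8.74 with Pax3 alone and 8.95, 9.05 and 9.87 with both factors, and with cycloheximide 8.24, 9.15 and 9.22 against 9.34, 10.15 and 10.54. It was thus higher with Zic1 within every replicate number. The other, Xl2.1796.1.S2_at, read 7.79 to 8.77 in control caps, 8.86, 8.92 and 9.61 with Pax3 alone and 8.64, 8.43 and 8.60 with both factors, and with cycloheximide 9.81, 10.19 and 10.54 against 9.66, 10.34 and 9.76. By this probe set zic1.S was lower, not higher, in 5 of the 6 pairs of samples that differ in Zic1, and the labels do not say which part of the gene the construct holds. Epidermal markers were present in control caps, with the keratin krt12.4.L at 10.75 to 11.34 and krt70.S at 12.12 to 12.53, while tp63.L, a regulator of later basal epidermis, was at 1.72 to 1.83. Replicate numbers paired the samples across groups: once each group's mean was taken out, the closest match of every one of the 15 samples was another sample with its number. Calls below are therefore given from the fit without the replicate number and, where they differ, from the fit with it as a block. A probe set is called where its Benjamini-Hochberg adjusted p over all probe sets is under 0.05. All values are on the log2 scale of the deposited values. The base of the logarithm was taken from the values themselves. A level can be compared between samples for one probe set but not between probe sets.

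The means of the 38 Hox probe sets over the 15 samples ran from 1.36 to 4.49, and in control caps from 1.43 to 3.59. How much of such a level is signal of the gene differs from probe to probe, so the levels themselves carry no order of expression among the Hox genes. Between the lowest and the highest of the 15 samples a Hox probe set differed by a median of 0.676, against 1.02 over all probe sets and 0.563 over those below the lower quartile of levels. A range above 1 was found in 14 of the 38, against 51.0% of all probe sets. The files give no detection call, so which of these levels lie above background was not tested.

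**Figure D1:**
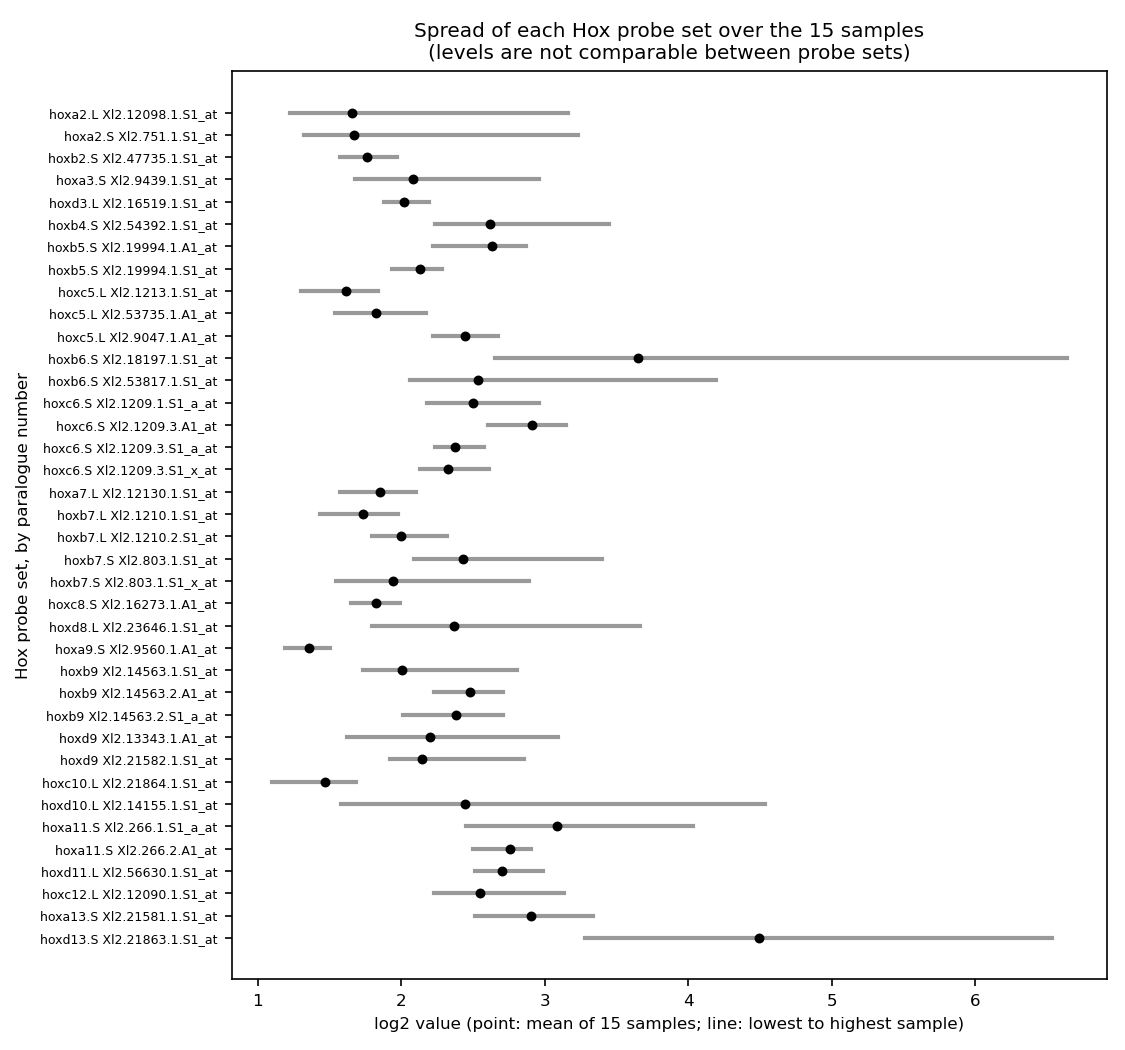
Mean log2 value over the 15 samples (points) and range from the lowest to the highest sample (grey lines) of each of the 38 Hox probe sets, by paralogue number. The lines are longest for hoxb6.S (Xl2.18197.1.S1_at), at 3.99, hoxd13.S, at 3.25, and hoxd10.L, at 2.95; the positions of different probe sets are not comparable.

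Without the replicate block no Hox probe set was called in any comparison, and with the block 6 were called in at least one. Those 6 belong to 5 genes: hoxb7.S, which had both its probe sets called, hoxb9, hoxd8.L, hoxa11.S and hoxd13.S. The plot of differences shows them beside the other members. Named by hand after its values were seen, hoxb6.S showed the largest single difference, 1.82, and was not called in either fit.

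**Figure D2:**
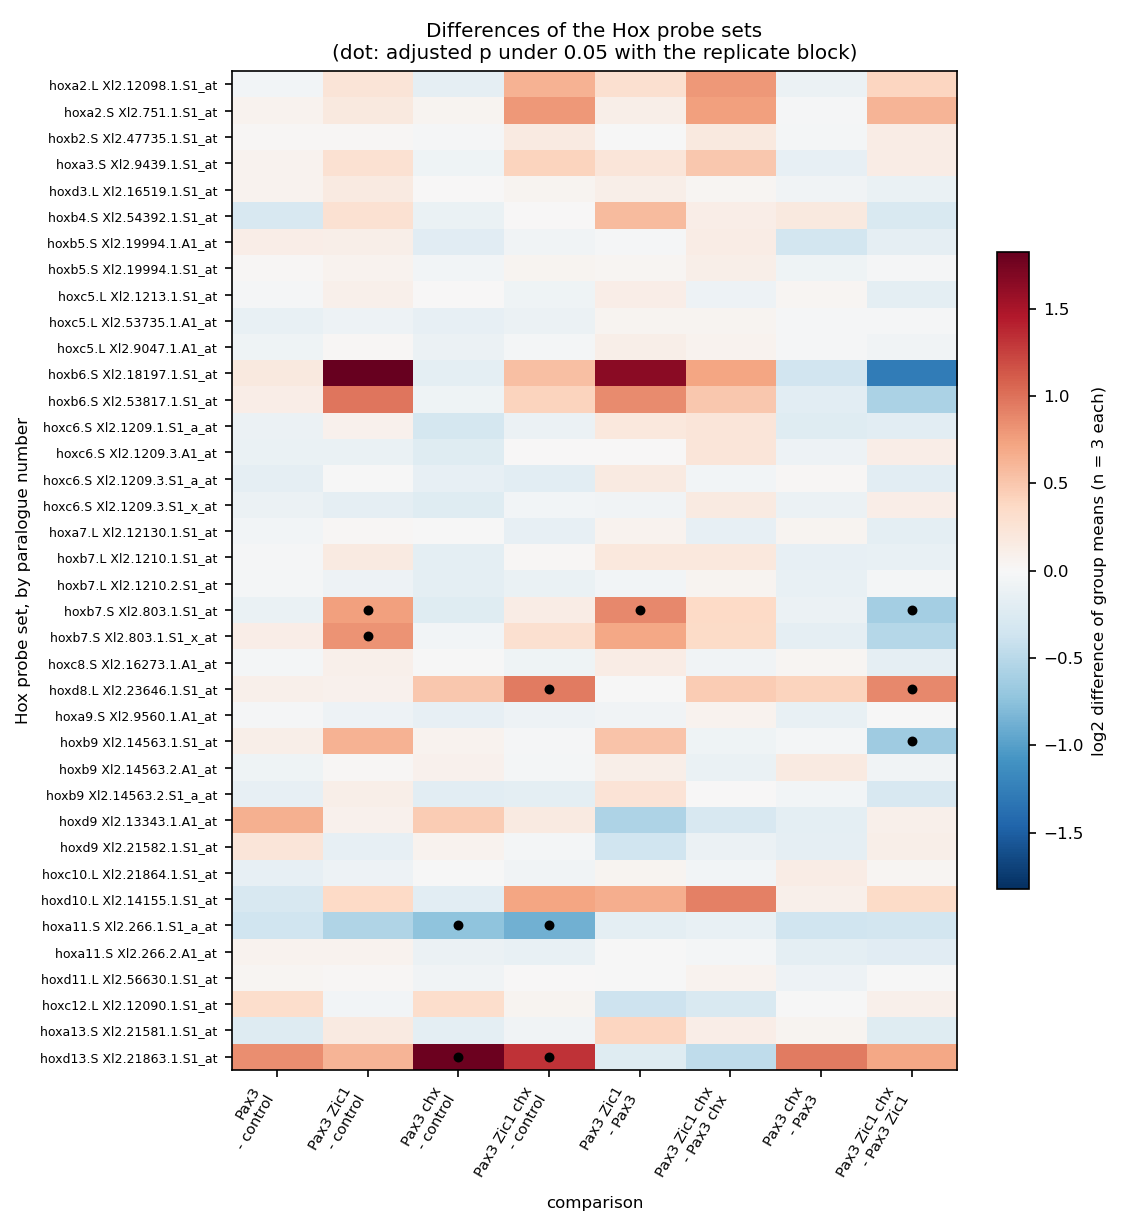
Log2 difference of group means (colour, n = 3 per group) of the 38 Hox probe sets, ordered by paralogue number, in 8 comparisons of the groups; chx is cycloheximide, and a dot marks adjusted p under 0.05 in limma with the replicate block. The dots fall on hoxb7.S, hoxd8.L, hoxb9, hoxa11.S and hoxd13.S, and the darkest red, in hoxb6.S, carries none.

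Pax3 caps against control ask which Hox genes change when Pax3 alone is active. Of the 38 Hox probe sets 0 were called by limma, where 0.286% of all probe sets were, and 0 with the block, where 2.14% were. At an unadjusted p under 0.05 there were 0 without the block, against 4.16% of all probe sets. With the block there were 5, which is 13.2% against 9.07% of all probe sets. The median difference was -0.03, against 0.02 over all probe sets. In Pax3 caps 17 of the 38 were higher, against 18109 of all 32539 probe sets. The largest differences were those of hoxd13.S, 0.84 ± 0.59 (SE, n = 3 per group), and of the hoxd9 probe set Xl2.13343.1.A1_at, 0.64 ± 0.33, both with an adjusted p of 1.00. Values of this hoxd9 probe set were 1.62, 2.14 and 2.04 in control replicates 1 to 3 and 2.14, 2.56 and 3.03 in Pax3 caps. The groups parted only narrowly, at 2.139 in control replicate 2 and 2.145 in Pax3 replicate 1. The second hoxd9 probe set differed by 0.22, and its groups overlapped.

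Pax3 and Zic1 caps against control ask the same of both factors together. The HoxB genes hoxb6.S and hoxb7.S were higher in Pax3 and Zic1 replicates 2 and 3 than in control caps. Replicate 1 stayed near the control level. The same held for hoxb9 by its probe set Xl2.14563.1.S1_at, but not by its other probe sets. Of the 38 Hox probe sets limma called 0, against 0.492% of all probe sets. With the block 2 rose, both of hoxb7.S, which is 5.26% against 4.35% of all probe sets. At an unadjusted p under 0.05 there were 5, all higher and all of HoxB, against 6.97% of all probe sets. With the block there were 7, or 18.4%, against 17.1% of all probe sets. The median was 0.08 over the Hox probe sets and 0.00 over all. Of the 38, 28 were above 0, against 16444 of all 32539 probe sets.

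The hoxb6.S probe set Xl2.18197.1.S1_at read 2.97, 3.07 and 3.48 in control replicates 1 to 3, 3.14, 3.40 and 3.53 in Pax3 caps, and 3.10, 6.64 and 5.26 in Pax3 and Zic1 caps. Under cycloheximide it read 2.66, 3.33 and 3.02 in Pax3 caps and 2.91, 4.66 and 3.58 in Pax3 and Zic1 caps. Pax3 and Zic1 replicates 2 and 3 stood above every other sample, and replicate 1 lay within the control range, so the groups overlapped. The difference from control was 1.82 ± 0.68, with adjusted p = 0.49 and 0.072 with the block. Its second probe set, Xl2.53817.1.S1_at, read 2.17, 2.32 and 2.27 in control caps and 2.47, 4.20 and 3.02 in Pax3 and Zic1 caps, which did not overlap, a difference of 0.98 ± 0.33 with adjusted p = 0.40 and 0.060 with the block. Single samples of Pax3 and Zic1 caps moved both values. Without replicate 1 the differences with the block were 2.58 and 1.31, with adjusted p = 0.0029 and 0.0069. Without replicate 2 they were 1.16 and 0.58 with the block, with adjusted p = 0.20 and 0.13, and 1.00 and 0.49 without the block. Both arrays of Pax3 and Zic1 replicate 2 gave high values for Xl2.18197.1.S1_at, 6.62 and 6.67.

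The hoxb7.S gene is the next in the RefSeq order of the HoxB .S cluster after hoxb6.S. Its probe set Xl2.803.1.S1_at read 2.40, 2.27 and 2.31 in control caps, 2.27, 2.22 and 2.12 in Pax3 caps and 2.57, 3.40 and 3.27 in Pax3 and Zic1 caps. Under cycloheximide the values were 2.09, 2.09 and 2.12 in Pax3 caps and 2.27, 2.70 and 2.42 in Pax3 and Zic1 caps. All 3 Pax3 and Zic1 samples lay above all control samples, replicate 1 by the least. The difference was 0.75 ± 0.19, with adjusted p = 0.14 and 0.029 with the block. Its other probe set, Xl2.803.1.S1_x_at, whose ending marks probes that may also match other sequences, read 1.67, 1.55 and 1.91 in control caps, 1.79, 1.84 and 1.85 in Pax3 caps and 1.89, 2.89 and 2.80 in Pax3 and Zic1 caps. Under cycloheximide it read 1.68, 1.66 and 1.63 in Pax3 caps and 1.86, 2.08 and 2.09 in Pax3 and Zic1 caps. Replicate 1 of Pax3 and Zic1 caps lay just below the highest control sample, so that here the groups overlapped. The difference was 0.82 ± 0.21, with adjusted p = 0.17 and 0.031 with the block.

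The hoxb7.S calls with the block depended on single samples. For Xl2.803.1.S1_at the adjusted p was 0.13 without control replicate 2, 0.12 without control replicate 3, 0.12 without Pax3 and Zic1 replicate 2 and 0.10 without its replicate 3. For Xl2.803.1.S1_x_at it was 0.059, 0.14 and 0.084 without control replicates 1, 2 and 3, and 0.12 and 0.10 without Pax3 and Zic1 replicates 2 and 3. Without Pax3 and Zic1 replicate 1 the differences were 1.01 and 1.14, with adjusted p = 0.0046 and 0.0025 also in the fit without the block. The arrays 2.1 and 2.2 of Pax3 and Zic1 replicate 2 read 3.12 and 3.68 for Xl2.803.1.S1_at. The other copy, hoxb7.L, differed from control by 0.16 and -0.09 in its 2 probe sets, and hoxa7.L by 0.02.

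The hoxb9 gene marks the spinal cord in frog embryos. Its probe set Xl2.14563.1.S1_at read 1.83, 1.90 and 1.82 in control caps, 1.79, 1.97 and 2.11 in Pax3 caps and 1.88, 2.81 and 2.74 in Pax3 and Zic1 caps. Under cycloheximide the values were 1.94, 1.77 and 2.03 in Pax3 caps and 1.73, 1.88 and 1.88 in Pax3 and Zic1 caps. Pax3 and Zic1 replicates 2 and 3 were again the highest of all 15 samples, and replicate 1 lay among the controls. The difference from control was 0.63 ± 0.20, with adjusted p = 0.35 and 0.068 with the block. The 3 probe sets of hoxb9 disagreed: Xl2.14563.2.A1_at differed by 0.03 and Xl2.14563.2.S1_a_at by 0.11.

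Further forward in HoxB, hoxb4.S read 2.60, 2.63 and 2.71 in control caps, 2.48, 2.29 and 2.27 in Pax3 caps and 2.40, 3.45 and 2.94 in Pax3 and Zic1 caps. In the presence of the drug it read 2.33, 2.76 and 2.50 in Pax3 caps and 2.23, 3.27 and 2.46 in Pax3 and Zic1 caps. Replicate 2 was the highest in both groups that had Zic1, and also in Pax3 caps with cycloheximide. In Pax3 caps without the drug all 3 samples lay below the controls. The differences from control were -0.30 ± 0.28 with Pax3 alone and 0.28 ± 0.28 with both factors, with adjusted p = 1.00 for both. For hoxb5.S (Xl2.19994.1.A1_at) the 15 samples lay between 2.22 and 2.87, and it differed from control by 0.13 with Pax3 alone and by 0.10 with both factors. For hoxb2.S, the gene at the front of the measured HoxB members, they lay between 1.57 and 1.97, with differences of 0.02 in both.

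**Figure D3:**
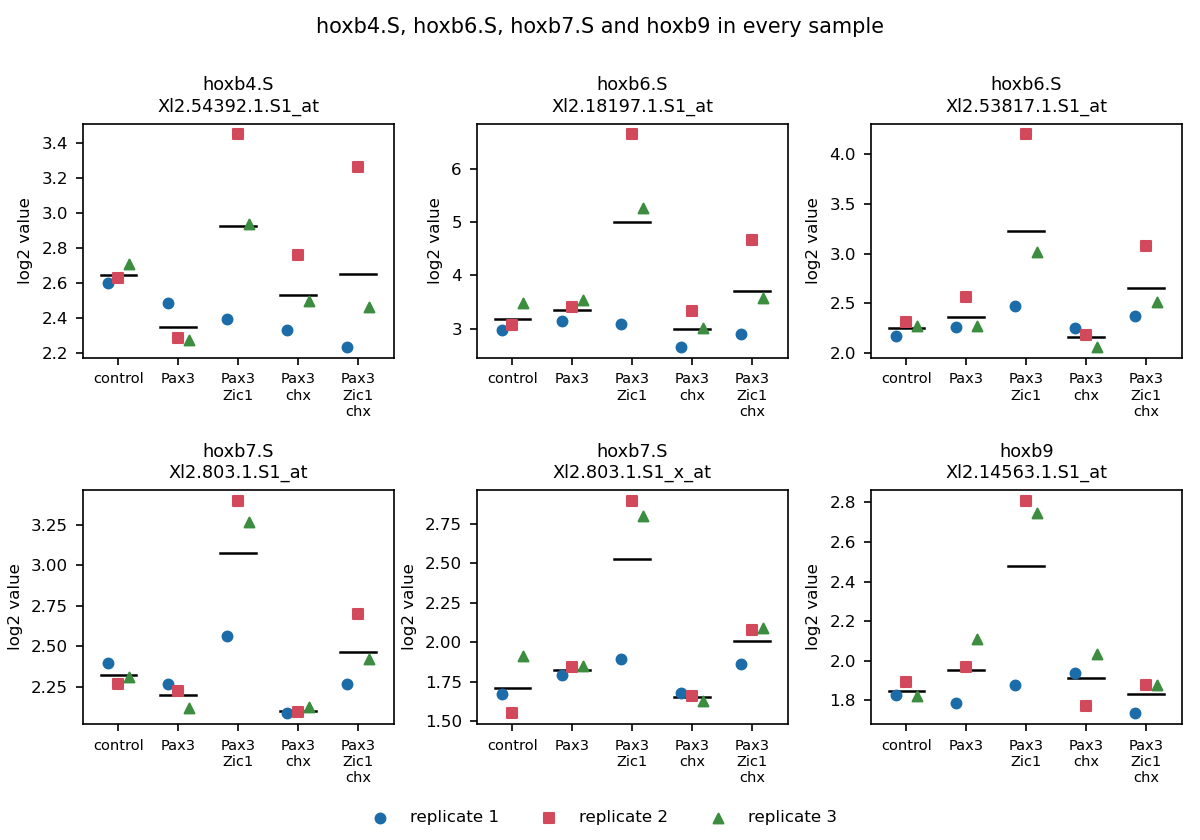
Log2 values of hoxb4.S, hoxb6.S, hoxb7.S and hoxb9 in each of the 15 samples (blue circles, red squares and green triangles for replicates 1, 2 and 3; black lines for group means; the vertical scales differ). In Pax3 and Zic1 caps replicates 2 and 3 of hoxb6.S, hoxb7.S and hoxb9 are high, up to 6.64. Replicate 1 lies close to the control samples. For hoxb9 only the probe set Xl2.14563.1.S1_at is shown.

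Cluster by cluster, the differences of Pax3 and Zic1 caps from control had a median of 0.16 over the 13 HoxB probe sets. Of these 12 were above 0, against 16444 of all 32539 probe sets. The median was 0.11 over HoxA, -0.03 over HoxC and 0.08 over HoxD. Of HoxB, 5 differed by more than 0.5 in size, of HoxA and HoxD 1 each, and of the 10 HoxC probe sets 0, against 11.2% of all probe sets. By region, the median was 0.17 over the 5 anterior, 0.08 over the 19 central and 0.04 over the 14 posterior probe sets. The 10 HoxC probe sets, for hoxc5.L, hoxc6.S, hoxc8.S, hoxc10.L and hoxc12.L, stayed between -0.17 and 0.10.

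Other measures also differed between the replicates of Pax3 and Zic1 caps. The pax3.S probe set read 6.14, 7.36 and 7.36 in replicates 1 to 3. The labels do not say whether it reads the construct, the embryo's own gene or both. The zic1.S probe set Xl2.1796.1.S1_at read 8.95, 9.05 and 9.87, and Xl2.1796.1.S2_at read 8.64, 8.43 and 8.60. Summed over the 19 endoderm marker genes the log2 levels were 73.7, 91.1 and 90.0, and over the 20 mesoderm marker genes 72.2, 76.3 and 85.3. In control replicates 1 to 3 the endoderm sums were 59.2, 75.0 and 66.5 and the mesoderm sums 58.0, 67.2 and 77.0. In Pax3 and Zic1 caps replicate 1 was thus lower than the other replicates for pax3.S, for Xl2.1796.1.S1_at of zic1.S and for both marker sums. It was also lower for hoxb6.S, hoxb7.S and hoxb9, and for the other zic1.S probe set it was the highest. This was not particular to the group. Replicate 1 had the lowest endoderm sum in every group, and the lowest mesoderm sum in every group except Pax3 caps. The pax3.S probe set was lowest in replicate 1 of every injected group. Of these markers, 7 endodermal and 3 mesodermal genes rose with the block in Pax3 and Zic1 caps, where 4.35% of all probe sets were called. The part of marker levels or of the injected dose in the HoxB values was not tested.

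Pax3 and Zic1 caps against Pax3 caps ask what the addition of Zic1 changes, since both groups had the injection and the hormone. The pax3.S level differed too: it read 5.20, 6.35 and 5.87 in Pax3 caps and 6.14, 7.36 and 7.36 in Pax3 and Zic1 caps, higher within every replicate number, so that Zic1 and the higher pax3.S level cannot be told apart. Limma called 0 Hox probe sets, against 0.0184% of all probe sets, and with the block 1 rose, which is 2.63% against 1.12% of all. It was hoxb7.S (Xl2.803.1.S1_at), higher by 0.87 ± 0.19 with adjusted p = 0.21 and 0.033 with the block, and all 3 samples with Zic1 lay above all 3 without. Its second probe set differed by 0.70 ± 0.21, with adjusted p = 0.58 and 0.11 with the block. At an unadjusted p under 0.05 there were 7, of which 6 were higher, against 4.88% of all probe sets. With the block there were 11, or 28.9%, against 14.5% of all probe sets.

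The hoxb7.S call for added Zic1 was lost, with adjusted p of 0.053 to 0.19, when any Pax3 sample, Pax3 caps with cycloheximide replicate 1 or 3, or Pax3 and Zic1 replicate 2 or 3 was left out. Values for hoxb6.S were 1.64 ± 0.68 and 0.86 ± 0.33 in its 2 probe sets, with adjusted p = 0.17 and 0.16 with the block. Without Pax3 and Zic1 replicate 1 these were 2.40 and 1.19 with the block, with adjusted p = 0.0097 and 0.023. Without replicate 2 of that group they were 0.97 and 0.47 with the block, with adjusted p = 0.29 and 0.24, and 0.82 and 0.38 without the block. The 14 posterior probe sets moved in both directions, from -0.56 to 0.66. Of them 3 differed by more than 0.5 in size, against 8.67% of all probe sets. For hoxc12.L the 15 samples lay between 2.23 and 3.14: Pax3 caps read 2.65, 2.82 and 2.77, above Pax3 and Zic1 caps at 2.40, 2.31 and 2.40, and control caps read 2.23, 2.62 and 2.41. With cycloheximide hoxc12.L read 2.51, 3.14 and 2.59 in Pax3 caps and 2.48, 2.46 and 2.46 in Pax3 and Zic1 caps. Both groups without Zic1 lay above their counterparts with it, by 0.37 ± 0.16 and 0.28 ± 0.16, with adjusted p = 0.95 and 1.00.

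Cycloheximide is given to separate changes that need new protein from those that do not. Since no control had the drug alone, its own effect cannot be told apart from that of the factors in the comparisons with control. In Pax3 caps with cycloheximide against control, limma called 0 of the 38 Hox probe sets, against 2.53% of all. With the block hoxd13.S rose and hoxa11.S fell, 2 of 38 or 5.26%, against 14.9% of all probe sets. An unadjusted p under 0.05 was reached by 1, against 12.8%, and with the block by 6, or 15.8%, against 29.1%. The median was -0.10, against -0.03 over all, and 10 of the 38 were above 0, against 14601 of all 32539 probe sets. For Pax3 and Zic1 caps with cycloheximide against control, 0 were called, against 4.56%. With the block hoxd8.L and hoxd13.S rose and hoxa11.S fell, 3 of 38 or 7.89%, against 18.9%. An unadjusted p under 0.05 was reached by 4, against 15.9%, and with the block by 7, or 18.4%, against 32.1%. With the block the Hox genes were thus called at a lower rate than all probe sets in both comparisons. Without it, shares of 2.53% and 4.56% would give few calls among 38 probe sets, so that 0 says little. However, all 38 Hox probe sets lay below the median level of all probe sets, and 32 below the lower quartile. The part of low levels in the lower rate was not tested.

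The gene hoxd13.S is the last of its cluster, and in mouse and human it patterns digits, hindgut and genital tissue. It read 3.28, 3.88 and 3.57 in control caps, 3.73, 5.34 and 4.19 in Pax3 caps and 3.85, 4.48 and 4.28 in Pax3 and Zic1 caps. The values with cycloheximide were 4.40, 6.53 and 5.16 in Pax3 caps and 3.84, 5.89 and 4.98 in Pax3 and Zic1 caps. Replicate 2 was the highest in every group, and within each number the Pax3 sample with cycloheximide was the highest of the 5. The difference from control was 1.79 ± 0.59 in Pax3 caps with cycloheximide, without overlap, with adjusted p = 0.18 and 0.0017 with the block. With both factors and the drug it was 1.32 ± 0.59, where replicate 1 overlapped the controls, with adjusted p = 0.29 and 0.0070 with the block. Within replicate numbers 1, 2 and 3 the differences were 1.12, 2.65 and 1.59 in the former and 0.56, 2.01 and 1.41 in the latter. Without the drug they were 0.45, 1.46 and 0.61 in Pax3 caps, with adjusted p = 1.00 and 0.23 with the block. Leaving out any one sample kept both block calls with the drug. Pax3 caps with and without the drug differed by 0.94 ± 0.59, with adjusted p = 0.67 and 0.054 with the block.

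The gene hoxa11.S, which in mouse patterns the middle limb segment and the uterus, went the other way. Its probe set Xl2.266.1.S1_a_at read 3.04, 4.03 and 3.70 in control caps, 2.61, 3.94 and 3.12 in Pax3 caps and 2.85, 3.34 and 2.95 in Pax3 and Zic1 caps. Under the drug the readings were 2.45, 3.22 and 2.89 in Pax3 caps and 2.50, 3.09 and 2.56 in Pax3 and Zic1 caps. The groups overlapped, since control replicate 1 was itself low, but within every number each of the 4 treated samples was below the control. The differences were -0.74 ± 0.34 and -0.88 ± 0.34 in the 2 groups with cycloheximide, with adjusted p = 0.40 and 0.22, and 0.0074 and 0.0021 with the block. Both block calls held when any one sample was left out. Its other probe set, Xl2.266.2.A1_at, differed by only -0.11 and -0.14 in the same comparisons, and was called in neither. The RefSeq table used here places the gene annotated hoxa11.S on an L chromosome, so that which copy these probe sets measure is uncertain.

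The central gene hoxd8.L read 2.07, 2.05 and 2.02 in control caps, 1.97, 2.43 and 1.99 in Pax3 caps and 1.80, 2.27 and 2.32 in Pax3 and Zic1 caps. With the drug present it read 2.26, 2.57 and 2.79 in Pax3 caps and 2.59, 3.66 and 2.74 in Pax3 and Zic1 caps. Both groups with the drug lay above the control samples without overlap, and Pax3 and Zic1 replicate 2 with cycloheximide was the highest of all. The difference from control was 0.95 ± 0.26 in Pax3 and Zic1 caps with cycloheximide, with adjusted p = 0.061 and 0.0065 with the block, a call kept when any one sample was left out. In Pax3 caps with cycloheximide it was 0.50 ± 0.26, with adjusted p = 0.47 and 0.12 with the block.

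**Figure D4:**
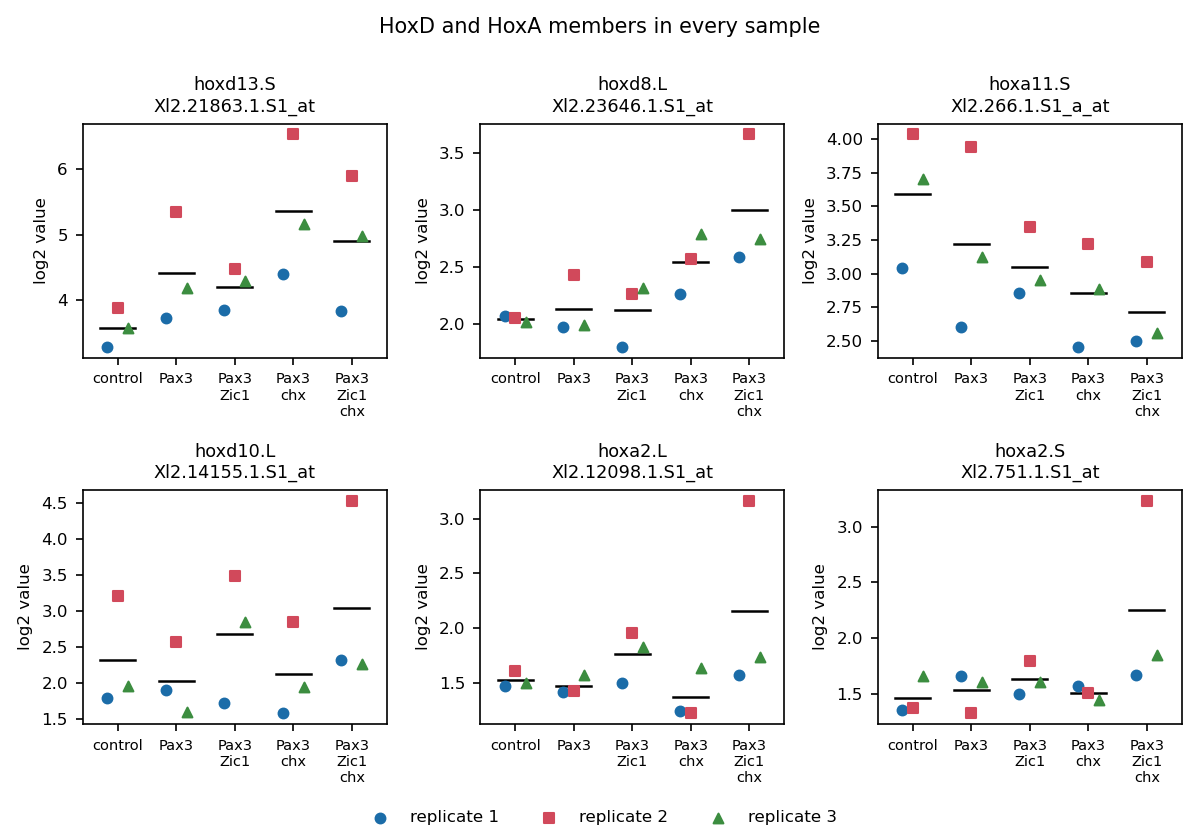
Log2 values of hoxd13.S, hoxd8.L, hoxa11.S (Xl2.266.1.S1_a_at), hoxd10.L, hoxa2.L and hoxa2.S in each of the 15 samples (blue circles, red squares and green triangles for replicates 1, 2 and 3; black lines for group means; the vertical scales differ). Replicate 2 is high in hoxd13.S and hoxd10.L throughout, and with both factors and the drug it also stands apart for hoxa2.L and hoxa2.S, at 3.16 and 3.23.

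The drug can also be compared within caps that had the same factors. In Pax3 caps limma called 0 Hox probe sets with cycloheximide against without, where 0.87% of all probe sets were called, and 0 with the block, where 10.5% were. An unadjusted p under 0.05 was reached by 1, against 10.4%, and with the block by 3, or 7.89%, against 26.2%. With both factors 0 were called, against 1.59%. With the block hoxd8.L rose and hoxb7.S (Xl2.803.1.S1_at) and hoxb9 (Xl2.14563.1.S1_at) fell, 3 of 38 or 7.89%, against 16.4%. An unadjusted p under 0.05 was reached by 4, against 13.9%, and with the block by 11, or 28.9%, against 31.7%. The differences were 0.87 ± 0.26 for hoxd8.L, -0.61 ± 0.19 for hoxb7.S and -0.65 ± 0.20 for hoxb9, with adjusted p of 0.14, 0.14 and 0.16, and of 0.014, 0.030 and 0.026 with the block. In hoxb9 all 3 samples with the drug were at or below 1.88 and those without at or above 1.88, with no overlap. The hoxb6.S probe set Xl2.18197.1.S1_at was lower with the drug by 0.19, 1.98 and 1.68 within numbers 1 to 3, with adjusted p = 0.44 and 0.11 with the block.

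These 3 calls also depended on single samples. For hoxd8.L the adjusted p with the block was 0.051 without Pax3 and Zic1 replicate 2. For hoxb7.S it was 0.11 and 0.099 without Pax3 and Zic1 replicates 2 and 3, and 0.096 and 0.11 without the replicates 1 and 3 that had cycloheximide. For hoxb9 it ran from 0.055 to 0.10 without Pax3 and Zic1 replicate 2 or 3 or any one of the 3 with cycloheximide. Without Pax3 and Zic1 replicate 1, hoxb7.S and hoxb9 were called in the fit without the block too, at -0.87 and -0.95 with adjusted p = 0.0072 and 0.0045.

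With cycloheximide present in both groups, pax3.S read 5.34, 6.69 and 6.69 in Pax3 caps and 5.64, 7.31 and 7.12 with both factors. It was again higher within every replicate number, so that Zic1 and the pax3.S level cannot be told apart here either. Added Zic1 gave 0 called Hox probe sets, against 0.0338% of all, and 0 with the block, against 0.744%. An unadjusted p under 0.05 was reached by 3, all higher and all of the anterior genes hoxa2.L, hoxa2.S and hoxa3.S, against 3.13% of all probe sets. With the block it was reached by 6, or 15.8%, against 8.79% of all probe sets, and only 3 of these were anterior. The interaction asks whether the effect of Zic1 differs with and without the drug. It gave 0 called Hox probe sets in both fits, as it did over all probe sets (0% and 0%). An unadjusted p under 0.05 was reached by 0 without the block, against 0.593%, and by 1 with it, or 2.63%, against 2.39%. Whether the HoxB genes respond to Zic1 differently with the drug is therefore not settled by these samples: for hoxb7.S (Xl2.803.1.S1_at) added Zic1 gave 0.87 without the drug and 0.36 with it, an interaction of -0.51 ± 0.26 with adjusted p = 1.00.

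In the anterior genes hoxa2.L, hoxa2.S and hoxa3.S the highest of the 15 samples was replicate 2 of Pax3 and Zic1 caps with cycloheximide. The gene hoxa2 patterns the hindbrain and the neural crest of the second pharyngeal arch, and hoxa3 that of the arches behind it. In Pax3 and Zic1 caps with cycloheximide hoxa2.L read 1.57, 3.16 and 1.74 and hoxa2.S 1.67, 3.23 and 1.85, where control caps read 1.48, 1.61 and 1.50 for the former and 1.35, 1.37 and 1.66 for the latter. The other 3 groups ran from 1.23 to 1.96 for hoxa2.L and from 1.32 to 1.79 for hoxa2.S. Replicate 2 of Pax3 and Zic1 caps with cycloheximide thus stood alone in both copies. For hoxa3.S the values in that group were 1.95, 2.96 and 2.16, against 1.68, 2.13 and 2.04 in control caps, 1.81, 2.22 and 1.99 with Pax3 alone, 2.08, 2.40 and 2.19 with both factors and 1.80, 1.86 and 1.93 in Pax3 caps with cycloheximide. Against Pax3 caps with cycloheximide the differences were 0.79 ± 0.32, 0.74 ± 0.31 and 0.49 ± 0.23 for hoxa2.L, hoxa2.S and hoxa3.S, with adjusted p = 1.00 for all 3. Of the remaining anterior genes, hoxb2.S and hoxd3.L, no difference from control exceeded 0.17.

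The posterior gene hoxd10.L, which in mouse specifies lumbar motor neurons, varied more by replicate number than by group. It read 1.80, 3.22 and 1.96 in control caps, 1.91, 2.57 and 1.61 in Pax3 caps and 1.73, 3.49 and 2.85 in Pax3 and Zic1 caps. The drug groups read 1.58, 2.85 and 1.95 in Pax3 caps and 2.32, 4.53 and 2.27 in Pax3 and Zic1 caps. Replicate 2 was the highest in all 5 groups, and all groups overlapped. The largest difference from control was 0.72 ± 0.64, in Pax3 and Zic1 caps with cycloheximide, with adjusted p = 0.70 and 0.11 with the block.

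The dependence on replicate number held over many members. Replicate 1 of Pax3 and Zic1 caps was the lowest of the 3 samples in 29 of the 38 Hox probe sets, against 39.5% of all probe sets, and the highest in 1, against 30.7%. In control caps replicate 1 was the lowest in 19 of 38, against 34.0%, and in the other groups it was the lowest in 23 to 27 of 38, against 34.2% to 38.7%. Replicate 2 of Pax3 and Zic1 caps with cycloheximide was the highest of its group in 24 of 38, against 32.3%. That sample also had the muscle regulator myod1.L at 6.34, where replicates 1 and 3 read 3.48 and 3.61, and replicate 3 of the same group had the highest sum over the mesoderm markers, 113.8. The labels do not say what the replicate numbers stand for, such as a batch of embryos. Probe sets of one gene and both copies share sequence and are not independent of one another.

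Hox proteins bind DNA with cofactors of the TALE class, the Pbx, Meis and Pknox proteins, of which 6 gene copies were measured. The cofactor gene meis2.L read 2.24, 2.37 and 2.05 in control caps, 2.36, 2.48 and 2.64 in Pax3 caps and 2.79, 3.89 and 5.02 in Pax3 and Zic1 caps. Under cycloheximide the values were 2.45, 2.25 and 2.37 in Pax3 caps and 2.24, 2.43 and 2.39 in Pax3 and Zic1 caps. All 3 Pax3 and Zic1 samples lay above the other 12. The difference from control was 1.68 ± 0.39, with adjusted p = 0.10 and 0.021 with the block, and the drug lowered it by 1.55 in Pax3 and Zic1 caps, with adjusted p = 0.075 and 0.014 with the block. By contrast meis3.S, which acts with Hox proteins in the hindbrain, fell with the block in Pax3 caps (-1.01 ± 0.26, adjusted p = 0.25 and 0.025) and in caps with both factors (-0.97 ± 0.26, adjusted p = 0.19 and 0.021). Over the list, in Pax3 and Zic1 caps against control 0 of 6 were called without the block, and 1 rose and 1 fell with it. The shares of all probe sets called were 0.492% and 4.35%. The median over the list was 0.12.

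Genes that act upstream of the Hox genes were measured by 18 gene copies. They include signals and factors that switch Hox genes on, and also genes of enzymes that degrade retinoic acid. When both factors were active, 2 of them rose and 1 fell without the block, against 0.492% of all probe sets called. With the block 5 rose and 1 fell, against 4.35% of all probe sets. The median over the 18 was 0.02. The retinoic acid synthesis enzyme gene aldh1a2.L read 5.28, 5.59 and 4.55 in control caps and 6.42 to 7.84 in the 12 other samples, and differed from control by 2.35 ± 0.27 with Pax3 alone and 1.68 ± 0.27 with both factors, with adjusted p = 0.0065 and 0.020. The ligand gene fgf8.L rose by 2.15 ± 0.39 in Pax3 and Zic1 caps, with adjusted p = 0.035, and the receptor gene rarg.S fell by 0.71, with adjusted p = 0.048. The retinoic acid degrading enzyme gene cyp26a1.S differed from control by 1.87 ± 0.39 with Pax3 and the drug and by 3.06 ± 0.39 with both factors and the drug, with adjusted p = 0.026 and 0.00095. Against control, 3 of the 18 rose in Pax3 caps with cycloheximide and 7 with both factors and the drug, while 0 fell. With the block 7 and 8 were higher, and 1 was lower in each. Of all probe sets 2.53% and 4.56% were called in these comparisons, and 14.9% and 18.9% with the block. The Wnt ligand gene wnt8a.L read 2.64, 3.76 and 4.78 in control caps and 5.86, 6.24 and 7.82 in Pax3 and Zic1 caps, with adjusted p = 0.13 and 0.019 with the block.

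The Cdx genes and tbxt act above the trunk Hox genes. For cdx4.L control caps read 4.48, 4.46 and 7.31, and Pax3 and Zic1 caps 3.66, 3.95 and 6.28. For tbxt.L, the mesodermal gene brachyury, control caps read 3.16, 4.83 and 7.01, and Pax3 and Zic1 caps 2.91, 3.02 and 5.36. Replicate 3 was the highest in both groups. It was also the highest with cycloheximide, where cdx4.L read 2.23, 3.27 and 5.07 with Pax3 and 2.19, 4.17 and 7.56 with both factors, and tbxt.L 2.20, 2.62 and 4.48 and then 2.43, 3.25 and 7.39. In Pax3 caps it was not, with cdx4.L at 3.61, 4.24 and 3.85 and tbxt.L at 3.16, 4.10 and 2.51. The tbxt.S copy read 3.68, 5.14 and 3.39 there. The other Cdx genes were highest in replicate 3 of Pax3 caps, with cdx1.S at 4.09, 4.36 and 4.92 and cdx2.L at 3.31, 4.70 and 5.42. With Pax3 and cycloheximide cdx2.L read 4.78, 5.81 and 6.84, against 3.55, 4.59 and 6.14 in control caps. It was thus higher within every number, while cdx1.S and cdx4.L were lower. The control samples spread widely for cdx4.L and tbxt.L. In hoxb6.S, hoxb7.S and hoxb9 control replicate 3 was within 0.51 of the other controls. These probe sets lie at unlike levels, and a link between the genes was not tested.

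Homeobox genes linked to the Hox clusters or their relatives gave 3 gene copies. The gene evx1.L lies next to the HoxA cluster in vertebrates and marks posterior and ventral mesoderm. It read 2.04, 2.58 and 2.88 in control caps, 2.71, 5.51 and 3.00 in Pax3 caps and 4.74, 5.30 and 4.52 in Pax3 and Zic1 caps. In the presence of the drug it read 4.26, 5.89 and 3.71 in Pax3 caps and 4.44, 6.81 and 5.49 in Pax3 and Zic1 caps, so that 3 of the 4 treated groups lay wholly above the controls. It was called without the block in Pax3 and Zic1 caps with cycloheximide (3.08 ± 0.77, adjusted p = 0.042) and with the block also with both factors alone (2.35 ± 0.77, adjusted p = 0.36 and 0.016) and in Pax3 caps with cycloheximide (2.12 ± 0.77, adjusted p = 0.24 and 0.012). With mnx1.L, 2 of the 3 rose with the block in Pax3 and Zic1 caps, where 4.35% of all probe sets were called.

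**Figure D5:**
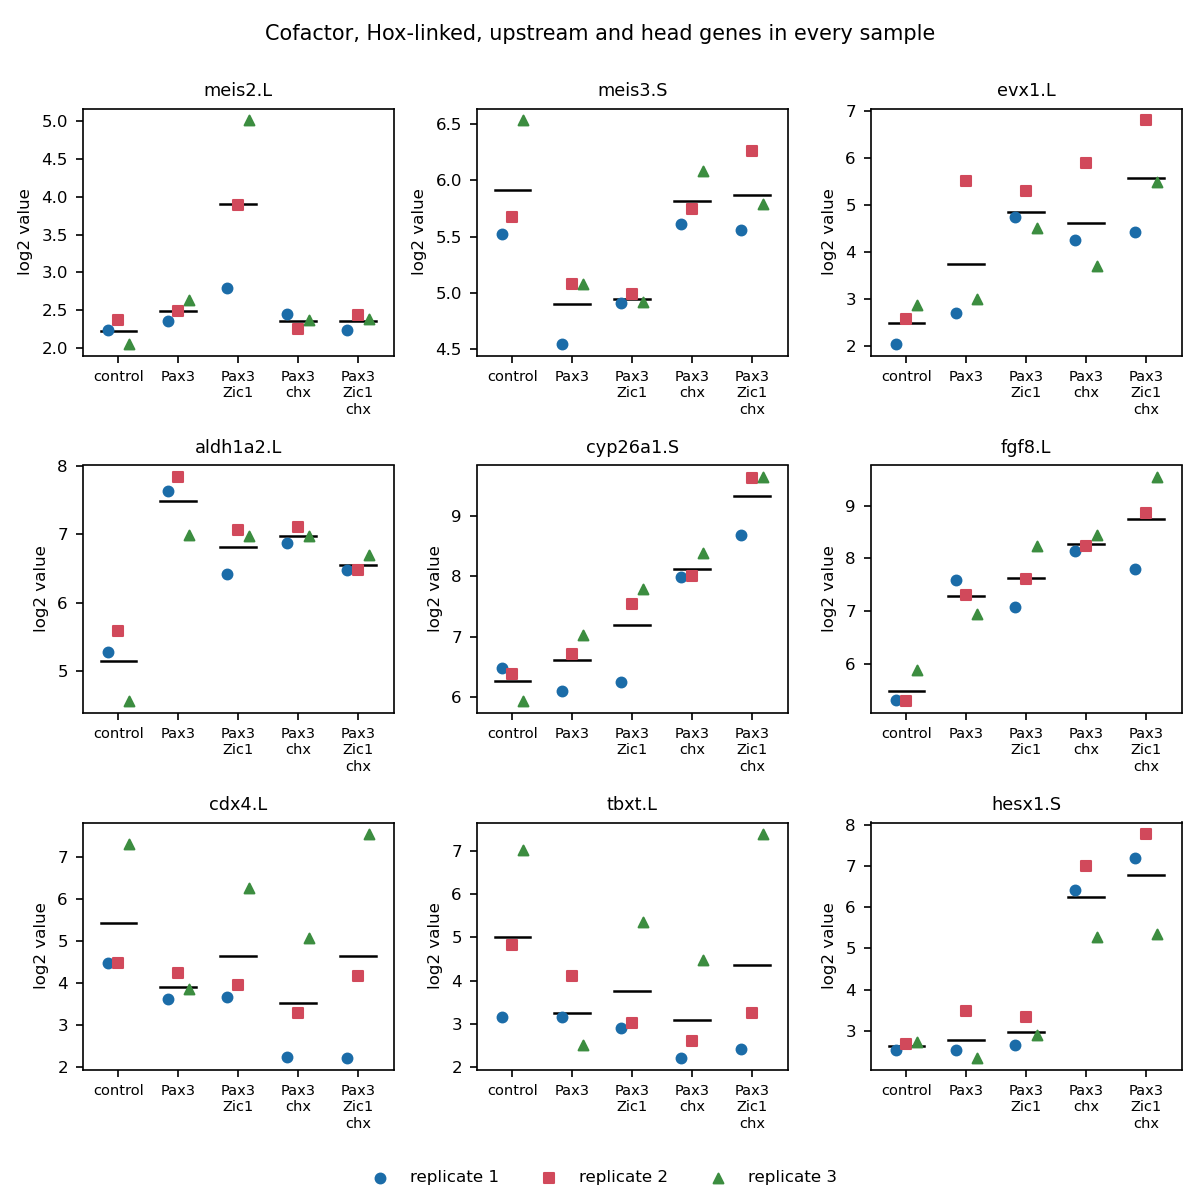
Log2 values of 9 genes outside the Hox clusters in each of the 15 samples (blue circles, red squares and green triangles for replicates 1, 2 and 3; black lines for group means; the vertical scales differ): the cofactor genes meis2.L and meis3.S, the Hox-linked evx1.L, the signalling genes aldh1a2.L, cyp26a1.S and fgf8.L, the trunk regulators cdx4.L and tbxt.L, and the head gene hesx1.S. In Pax3 and Zic1 caps meis2.L reads 2.79 to 5.02 and in the other groups 2.05 to 2.64, and cdx4.L and tbxt.L are high in replicate 3 of the control group.

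Genes of other axial levels were counted for comparison. Against control, 0.492% of all probe sets were called in Pax3 and Zic1 caps, in either direction. The share was 2.53% in Pax3 caps with cycloheximide and 4.56% with both factors and the drug. With the block these shares were 4.35%, 14.9% and 18.9%, so the background rose over these groups too. Among 15 homeobox gene copies of the head, 2 rose in Pax3 and Zic1 caps, 5 in Pax3 caps with cycloheximide and 7 with both factors and the drug, and 0 fell, all against control. With the block 6, 10 and 12 rose and 0 fell. These include crx.L, higher by 3.27 ± 0.28 in the last comparison with adjusted p = 0.00010, and hesx1.S, higher there by 4.15 ± 0.57 with adjusted p = 0.0014. Of 5 gene copies of hindbrain segments, 0 were called in Pax3 and Zic1 caps, 3 rose in Pax3 caps with cycloheximide and 4 with both factors and the drug. With the block 4 rose in each of these 3 groups. They were the copies of epha4 and efnb2, a receptor and a ligand that set segment borders and that other tissues also express. The gene egr2.L, which defines hindbrain segments and is a regulator of Hox genes there, stayed between 1.79 and 2.15 in all 15 samples. Of 20 Polycomb and Trithorax gene copies, which hold Hox genes off or on, 0 were called in Pax3 and Zic1 caps and 2 rose in each group with cycloheximide. With the block 1 rose and 1 fell when both factors were active, 7 rose in Pax3 caps with cycloheximide, and 7 rose and 1 fell with both factors and the drug.

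Markers of the other cell types that caps could hold moved with the same groups. Of all probe sets 0.492% were called in Pax3 and Zic1 caps against control and 4.56% with both factors and the drug, in either direction. With the block these shares were 4.35% and 18.9%. Of 17 epidermis gene copies 1 fell in Pax3 and Zic1 caps against control, and 4 with the block. In Pax3 and Zic1 caps with cycloheximide against control 7 fell and 1 rose, and 10 fell and 1 rose with the block. Their summed level ran from 145.3 to 154.9 in control caps and from 115.8 to 138.6 in the latter group. Of 14 neural plate copies 1 rose in Pax3 and Zic1 caps, and with the block 3 rose and 1 fell. With both factors and the drug 5 rose and 1 fell, and 9 rose and 2 fell with the block. The mesoderm list had 1 of 20 and 5 of 20 higher in these groups, and 3 and 7 with the block. The endoderm list had 2 of 19 and 10 of 19 higher, and 7 and 12 with the block, and no member of either list was called lower. The mesoderm sum of Pax3 and Zic1 caps with cycloheximide ran from 72.8 to 113.8 and the endoderm sum from 86.9 to 116.0. The part of these cell types in the Hox values was not tested.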

How the data were processed

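RNA of Xenopus laevis animal caps was hybridised to 16 Affymetrix arrays, which hold 5 groups with 3 biological replicates, 15 samples in all. The arrays 2.1 and 2.2 of Pax3 and Zic1 caps share a replicate number and their mean was used. The deposited table gives log2 values for each probe set; the logarithm's base was judged from their range, with array means of 4.96 to 4.99. The submitters' processing notes name R 2.14.2, while background, normalization and summary steps are not stated in the labels or the table. Probe sets were named by the platform's annotation. The RefSeq table of assembly Xenopus_laevis_v10.1 held 23 of the 25 Hox genes and changed 0 symbols.

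Of 32635 probe sets, 96 Affymetrix controls were left out. One model of all 5 group means was fitted with limma 3.58.1 in R 4.3.3 (with the package data.table, version 1.17.8; lmFit, eBayes; residual degrees of freedom 10, prior 2.17), two-sided, with Benjamini-Hochberg adjustment over 32539 probe sets and a threshold of 0.05. The number of arrays limits the precision. Called members, and the highest probe set of each paralogue number, are given in every sample, except hoxb2.S and hoxb5.S, which are given by their range. Values of list genes are for called ones. Those of cdx1.S, cdx2.L, cdx4.L, tbxt.L, tbxt.S, egr2.L, tp63.L, myod1.L, hoxb6.S, hoxd9 and hoxa2 are given after their values were seen. A gene copy of a list stands for its highest probe set. The members and the 10 lists were chosen with earlier results of these data known.

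Replicate numbers were checked as pairs on deviations from group means across probe sets. Samples of one number correlated at 0.43 to 0.86, with a median of 0.73, and samples of different numbers at -0.0956 or below. Deviations cancel out within a group, so the negative values are not separate evidence of pairing. Because of the correlation within numbers, the block fit (residual degrees of freedom 8, prior 3.40) was given too. Alternatives were trend and robust eBayes, quantile normalization, either array of the repeated sample, only the groups compared, a filter on dim probe sets, gene means and leaving out each sample. The method was tested on simulated data.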

Additional observations from a re-analysis of the deposited data

Results flagged for a closer look

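A second probe set of hoxb9, Xl2.14563.2.A1_at, was noted because cycloheximide moved its samples in opposite directions in the 2 kinds of injected cap. In control caps it read 2.57, 2.47 and 2.40. In Pax3 caps it read 2.23, 2.56 and 2.42 without the drug and 2.36, 2.61 and 2.71 with it, higher in 3 of 3 replicate numbers. In Pax3 and Zic1 caps it read 2.34, 2.56 and 2.62 without and 2.25, 2.50 and 2.57 with the drug, lower in 3 of 3. The differences were 0.16 and -0.07, and their difference was -0.226, with an adjusted p of 1.00 for the interaction in limma.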

How the results depend on the processing

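No result changed direction under any alternative run. The replicate block moved the number of called Hox probe sets from 0 to 2 for Pax3 and Zic1 caps against control, 2 for Pax3 caps with cycloheximide, 3 for Pax3 and Zic1 caps with cycloheximide, 1 for added Zic1 and 3 for cycloheximide in Pax3 and Zic1 caps. The block changed no other call of a Hox probe set; list counts with it stand beside those without. Trend and robust eBayes gave 1 (hoxd8.L) for Pax3 and Zic1 caps with cycloheximide, and so did quantile normalization. Leaving out one sample, or one replicate number in every group, with or without the block, gave 0 to 6 calls for Pax3 and Zic1 caps against control, 0 to 3 for Pax3 caps with cycloheximide, 0 to 4 for Pax3 and Zic1 caps with cycloheximide, 0 to 5 for added Zic1, 0 to 1 for cycloheximide in Pax3 caps and 0 to 6 for cycloheximide in Pax3 and Zic1 caps, and 0 to 0 for the other 3 comparisons. The highest counts came without Pax3 and Zic1 replicate 1, where the cause was not tested. With the block and all samples of number 2 or of number 3 left out, the hoxb7.S and hoxb9 calls were lost in every comparison, and hoxa11.S in Pax3 caps with cycloheximide was not called either (adjusted p = 0.069 and 0.078). For cycloheximide in Pax3 and Zic1 caps, hoxd8.L was called in only 1 of the 3 fits that left out a number, with adjusted p up to 0.11. With both factors and the drug against control, hoxd8.L was lost without number 2 (0.081) and hoxd13.S without number 3 (0.074). The call of hoxa11.S in that group and of hoxd13.S in Pax3 caps with cycloheximide was kept without any one number, the former at up to 0.0498. The leave-one-out fits with the block and the gene means with the block were chosen after seeing the data. A filter that keeps probe sets at or above the median level left 0 Hox probe sets and so gave no value. With no detection call in the files, the limit that background sets on small differences is unknown.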
